A study of Mus musculus with 13 samples.

Results

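A set of 165 genes was followed that had a higher abundance in fetal liver without KLF1 than in liver with 1 intact Klf1 allele, and no comparable rise with the MommeD45 allele. The set was chosen on measured abundance in the authors' deposited table, by 3 thresholds. A gene needed an abundance of at least 5 FPKM (fragments per kilobase of transcript, scaled to the sequenced total) in -/- livers, at least 2 times the +/- abundance there, and at most 1.25 times the +/- abundance in D45/- livers. Symbols of several families and of a list of named genes were then left out by the same rule, which removed 19 further genes. The 165 members came from 1001 genes with an abundance for all 3 genotypes, out of 2036 genes in that table. Because the abundances chose the members, their ratios are descriptions with no test, and the calls quoted beside them are the authors' own.

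KLF1, a transcription factor with zinc fingers made in red cell precursors, binds CACCC-type sequences and activates genes of haemoglobin, heme, the red cell membrane and the cell cycle. At this age the fetal liver mostly makes red cells, with hepatocyte precursors, endothelium, stroma, macrophages, megakaryocytes and granulocyte precursors beside the red cell precursors. mRNA had been sequenced from whole livers of mouse embryos at 14.5 days post coitum, in 3 replicates for each of 3 genotypes. The +/- livers carried 1 intact and 1 null Klf1 allele, the D45/- livers carried the MommeD45 allele over a null allele, and the -/- livers carried no intact allele, so that every mRNA group had at least 1 null allele and no wildtype mRNA was sequenced. The mutation lies in a linker of KLF1, per the series title. Globin transcripts had been depleted before poly(A) selection. KLF1 binding had been measured by chromatin immunoprecipitation in wildtype and MommeD45 livers, in 1 library each from 2 pooled replicates, and the labels do not give the number of MommeD45 copies in those livers. Per genotype there was 1 abundance with no replicate values, so the spread between replicates is unknown and no SD or n stands beside a value.

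For Klf1 itself the authors' deposited table listed 378.5 FPKM in +/-, 398.4 in D45/- and 34.79 in -/-, and the gene was called lower in -/- than in +/- (q = 0.00159). The red cell list (30 genes of the membrane, heme synthesis and regulation) fell in the same livers, with 23 genes called lower and 0 higher in -/- than in +/-. The share of all genes called lower in -/- was not computed. Counts called lower, in this list and those below, thus stand without a background. Summed over the 23 red cell genes with all 3 abundances, the authors' deposited table put them at 11760 FPKM for +/-, 8710 for D45/- and 3497 for -/-. Each of these genes was called in at least 2 comparisons, so the sum is not that of the whole list. In whole liver, a change in the number of cells of a type and a change in RNA per cell cannot be told apart. The part that this shift in red cell genes had in the members' abundances was not tested.

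In the authors' deposited table, 165 of 165 members were called higher in -/- than in +/- (background 7.00% of the genes taken as tested) and 165 of 165 were called lower in D45/- than in -/- (background 4.89%). These counts follow in large part from the rule, and nothing is read from them. A gene has all 3 abundances only when at least 2 of the 3 comparisons list it. Among the 1001 genes with all 3 abundances, 877 were called in both comparisons with -/-, in either direction. Only 1 member, Stfa1, was called between D45/- and +/- (background 1.76%), and the absence of that call does not show that D45/- and +/- livers were alike. The smallest q that the authors' deposited table holds, 0.00159, was reached by 114 members against +/- and by 96 members against D45/-. The largest q of a member was 0.0403 against +/- and 0.0481 against D45/- in the authors' deposited table.

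Most members were of low to middle abundance. In the authors' deposited table their abundance in -/- livers ran from 5.02 to 6669 FPKM with a median of 11.52, and the medians in +/- and D45/- livers were 4.205 and 4.328 FPKM. There were 71 members under 10 FPKM in -/-, 82 between 10 and 100 FPKM, and 12 above 100 FPKM. The median ratio of -/- to +/- was 2.504 (1.32 on the log2 scale), beside a median log2 ratio of 0.885 over the 1001 genes with all 3 abundances. The ratio was at least 3 in 41 members, at least 5 in 16 and at least 10 in 6, while 81 members lay under 2.5. The median ratio of D45/- to +/- was 1.043 (0.06 on the log2 scale), beside a median log2 ratio of -0.08 over the 1001 genes. Of the members, 67 were lower in D45/- than in +/- and 98 were at or above it, and 137 lay between 0.8 and 1.2 times the +/- abundance. Both comparisons with +/- use the same +/- livers, so the ratios are not independent of each other.

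**Figure D1:**
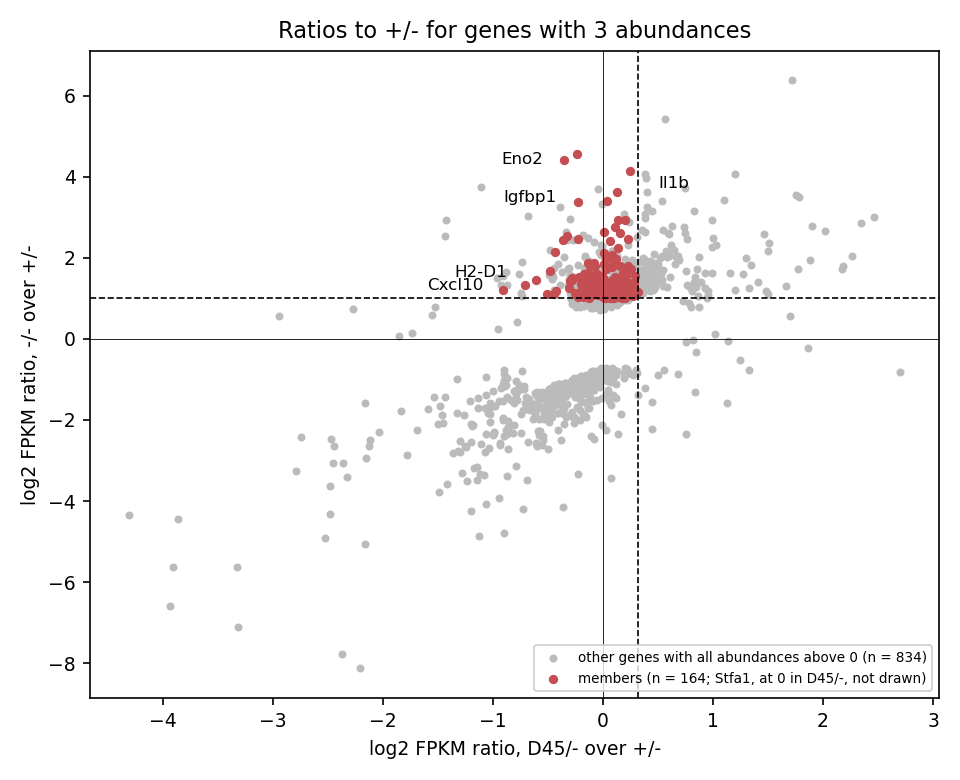
Each point is 1 gene of the authors' deposited table with 3 abundances above 0, placed by its log2 FPKM ratio of D45/- to +/- (x axis) and of -/- to +/- (y axis). Members are in red, other genes in grey, and the dashed lines are the ratio thresholds of 2 and 1.25. Stfa1, listed at 0 in D45/-, is not drawn. The members sit in a narrow band around no change on the x axis and spread upward from the ratio threshold on the y axis, with Eno2 at a ratio of 21.4. The rule fixed the upper edge on the x axis and the lower edge on the y axis.

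Eno2, which encodes an enolase of glycolysis best known from neurons, was at 0.5598 FPKM in D45/-, 0.7164 in +/- and 15.32 in -/-, by the authors' deposited table, a ratio of 21.4. It was under 1 FPKM in both D45/- and +/- livers, at chr6:124710072-124719527 (mm9). Nrip3 was at 0.5404 FPKM in D45/-, 0.4564 in +/- and 8.001 in -/-, by the authors' deposited table, a ratio of 17.5. Il1b, the gene of an inflammatory cytokine, was at 0.4544, 0.4154 and 5.08 FPKM in that order in the authors' deposited table. Nupr1 encodes a small nuclear protein of the cell stress response. It was at 0.5934 FPKM in D45/-, 0.577 in +/- and 6.08 in -/-, by the authors' deposited table, with larger q-values of 0.0158 against +/- and 0.0178 against D45/-.

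Igfbp1 combined a large ratio with a high abundance. It encodes a secreted protein that binds insulin-like growth factors, made mainly by hepatocytes. Igfbp1 was at 74.62 FPKM in D45/-, 87.07 in +/- and 903.9 in -/-, by the authors' deposited table, a ratio of 10.4. Serpina3g, of a family of protease inhibitors, was at 1.885, 1.713 and 13.16 FPKM in that order in the authors' deposited table. Stc2 encodes a secreted glycoprotein and was at 3.612 FPKM in D45/-, 3.139 in +/- and 23.84 in -/-, by the authors' deposited table. Kcne3, a subunit of potassium channels, was at 2.492, 2.304 and 15.59 FPKM in the same order in the authors' deposited table. The transcriptional repressor gene Bhlhe40 also had one of the 10 largest ratios, with 5.232 FPKM in D45/-, 5.203 in +/- and 32.36 in -/-, by the authors' deposited table. Among these genes, Eno2 and Igfbp1 were lower in D45/- than in +/- livers and the others were above the +/- abundance.

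Promoter windows were read from RefSeq for the members of largest ratio that had an entry, to show what sequence lies at their starts. Each window runs from 250 bases before to 50 bases after the gene's start (GRCm38.p6), and capitals mark CCNCNCCC or CACCC on either strand, 2 ways of writing a KLF1-type motif. Eno2 is at chr6:124769624-124769923 (minus strand), Il1b at chr2:129371090-129371389 (minus strand), Nupr1 at chr7:126625421-126625720 (minus strand) and Igfbp1 at chr11:7197537-7197836 (plus strand).
Eno2: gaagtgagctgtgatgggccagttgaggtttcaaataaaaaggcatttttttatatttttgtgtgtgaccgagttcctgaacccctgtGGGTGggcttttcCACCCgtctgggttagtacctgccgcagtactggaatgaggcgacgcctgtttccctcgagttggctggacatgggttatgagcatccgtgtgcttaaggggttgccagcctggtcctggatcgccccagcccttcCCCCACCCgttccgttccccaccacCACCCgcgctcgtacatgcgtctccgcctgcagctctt
Il1b: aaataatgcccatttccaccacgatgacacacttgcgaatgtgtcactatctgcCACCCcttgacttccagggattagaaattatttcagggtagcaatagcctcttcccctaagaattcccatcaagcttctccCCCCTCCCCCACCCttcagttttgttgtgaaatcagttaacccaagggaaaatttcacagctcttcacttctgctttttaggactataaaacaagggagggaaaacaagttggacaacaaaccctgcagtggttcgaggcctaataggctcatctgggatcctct
Nupr1: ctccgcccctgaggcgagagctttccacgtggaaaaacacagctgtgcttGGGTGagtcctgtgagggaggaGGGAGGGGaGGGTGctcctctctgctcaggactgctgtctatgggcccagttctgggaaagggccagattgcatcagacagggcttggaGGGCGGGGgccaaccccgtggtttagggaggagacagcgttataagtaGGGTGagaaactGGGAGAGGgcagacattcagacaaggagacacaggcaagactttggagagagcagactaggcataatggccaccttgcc
Igfbp1: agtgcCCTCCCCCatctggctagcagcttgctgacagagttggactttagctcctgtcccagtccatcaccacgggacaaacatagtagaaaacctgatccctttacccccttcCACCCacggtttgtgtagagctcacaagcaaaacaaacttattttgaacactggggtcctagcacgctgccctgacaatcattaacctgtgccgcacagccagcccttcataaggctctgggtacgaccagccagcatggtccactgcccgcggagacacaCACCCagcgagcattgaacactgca
The Eno2 window holds 1 CCNCNCCC and 4 CACCC matches, and the Igfbp1 window 1 and 2. Il1b and Nupr1 hold 3 CCNCNCCC matches each. A match is a run of letters and not a measured binding site, and none of these 4 genes had a KLF1 peak within 10 kb in either genotype.

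Genes known to respond to low oxygen supplied 11 members, counting Mt1, Mt2 and Hmox1, which are described below with metal and heme. Of 47 such genes that the rule did not leave out by name, 21 were called higher in -/- than in +/- in the authors' deposited table (background 7.00%). Another 2 were called lower, and the 11 members had a median -/- to +/- ratio of 3.079. All the gene lists were chosen with earlier results of these data known, so their counts are descriptions. A list's total counts all its symbols, tested or not, while the background is over the genes taken as tested. Some lists hold an old and a new symbol of the same gene, here Ak3l1 and Ak4, so totals are slightly too large. The rule itself had left out other well known genes of this response by symbol, so the count does not describe the whole response. Beside Igfbp1, Stc2 and Bhlhe40, the members included Plod2, which modifies collagen and was at 1.775 FPKM in D45/-, 2.076 in +/- and 11.55 in -/-, by the authors' deposited table. The list also held a pair of glycogen enzymes. Gys1, which encodes muscle-type glycogen synthase, was at 8.043 FPKM in D45/-, 8.101 in +/- and 23.87 in -/-, by the authors' deposited table. Gbe1, the glycogen branching enzyme gene, was at 2.219, 1.816 and 5.333 FPKM in that order in the authors' deposited table. Ak4, a mitochondrial adenylate kinase gene, was at 5.393 FPKM in D45/-, 5.582 in +/- and 15.3 in -/-, by the authors' deposited table.

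Further members of energy and lipid metabolism were outside the lists and were picked out after their values had been seen. Ppp1r3b, which brings a phosphatase to glycogen, was at 1.462 FPKM in D45/-, 1.398 in +/- and 7.517 in -/-, by the authors' deposited table. The aldolase gene Aldoc was at 3.408, 4.205 and 11.24 FPKM in that order in the authors' deposited table. Aldoart1 was at 32.53, 35.52 and 93.03 FPKM there in the authors' deposited table, and as a near copy of Aldoa it may share reads with it, so its value is uncertain. Among genes of lipid handling, Hilpda, which encodes a lipid droplet protein, was at 15.24 FPKM in D45/-, 16.58 in +/- and 41.52 in -/-, by the authors' deposited table. Fabp4, the gene of a fatty acid carrier, was at 51.87, 49.04 and 168.9 FPKM in that order in the authors' deposited table, among the 10 members of highest abundance in -/-. Ampd2, an AMP deaminase gene also among those 10, was at 53.97 FPKM in D45/-, 56.09 in +/- and 170.2 in -/-, by the authors' deposited table. The unnamed RNA 2410006H16Rik, at 66.93, 66.73 and 163.6 FPKM in that order in the authors' deposited table, belonged to the same 10.

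The metallothionein genes Mt1 and Mt2, whose products bind zinc and copper, were by far the most abundant members. Mt1 was at 1983 FPKM in D45/-, 2071 in +/- and 6375 in -/-, by the authors' deposited table, a ratio of 3.08. Mt2 was at 2254, 2486 and 6669 FPKM in that order in the authors' deposited table, a ratio of 2.68. The loci lie 5.52 kb apart on chromosome 8. Hmox1, which encodes the enzyme that breaks down heme, was at 137.9 FPKM in D45/-, 122.5 in +/- and 247.3 in -/-, by the authors' deposited table. Genes of defence against oxidants outside the lists, again picked after their values had been seen, included Srxn1, which repairs oxidised peroxiredoxins. Srxn1 was at 38.21 FPKM in D45/-, 37.86 in +/- and 135.9 in -/-, by the authors' deposited table, a ratio of 3.59. The glutathione peroxidase gene Gpx3 was at 11.51, 12.32 and 32.14 FPKM in that order, and the extracellular superoxide dismutase gene Sod3 at 7.324, 7.427 and 16.51, in the authors' deposited table.

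Of 37 genes of the amino acid and endoplasmic reticulum stress responses, 6 were called higher (background 7.00%) and 1 lower in -/- in the authors' deposited table. Of these, 3 were members (Nupr1, Stc2 and Cebpb). Summed over the 7 genes of that list with all 3 abundances, -/- livers were at 174.4 FPKM, below 307.7 in +/-, by the authors' deposited table. The sum over these 7 genes, which is not that of the whole list, was thus lower in -/- while the 3 members were higher. Of 22 p53 response genes, 5 were called higher (background 7.00%) and 3 lower in -/- in the authors' deposited table, and 3 were members. Cdkn1a encodes the cell cycle inhibitor p21 and was at 2.601 FPKM in D45/-, 3.623 in +/- and 11.61 in -/-, by the authors' deposited table. Trp53inp1, at 1.719, 1.584 and 6.208 FPKM in that order in the authors' deposited table, and Plk2, at 2.443, 2.675 and 8.267, were the other members of the p53 list.

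Immediate early genes, which cells switch on within minutes to hours of a signal, supplied 9 members. Of the 47 genes of that list, 16 were called higher (background 7.00%) and 3 lower in -/- than in +/- in the authors' deposited table. Jun encodes a subunit of the AP-1 transcription factor and was at 5.46 FPKM in D45/-, 6.998 in +/- and 37.99 in -/-, by the authors' deposited table, a ratio of 5.43. Another AP-1 gene, Fosl2, was at 1.696, 1.782 and 6.224 FPKM in that order in the authors' deposited table. Zfp36 encodes a protein that destabilises mRNAs of cytokines and was at 10.19 FPKM in D45/-, 8.922 in +/- and 30.09 in -/-, by the authors' deposited table. Cebpb, the gene of a transcription factor of myeloid cells and liver, was at 7.867 FPKM in D45/-, 10.58 in +/- and 24.12 in -/-, by the authors' deposited table. Nfil3, Maff, Errfi1, Tiparp and Dusp6 were the other members, with ratios of -/- to +/- from 2.501 to 3.507. Atf3 had a larger ratio of 8.46 but was at 1.31 times the +/- abundance in D45/-, over the ceiling of the rule.

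Targets of NF-kB and TNF supplied 9 members as well. Of the 35 genes of that list, 18 were called higher (background 7.00%) and 2 lower in -/- than in +/- in the authors' deposited table. The members' median ratio was 2.761. Nfkbia encodes the feedback inhibitor of NF-kB and was at 5.487 FPKM in D45/-, 5.795 in +/- and 21.15 in -/-, by the authors' deposited table. Icam1, an adhesion receptor for leukocytes, was at 9.009, 10.21 and 29.09 FPKM in that order in the authors' deposited table. Csf1, the gene of the growth factor of macrophages, was at 6.296 FPKM in D45/-, 6.242 in +/- and 16.21 in -/-, by the authors' deposited table. Bcl3, Irf1 and Birc3 had ratios of 2.84, 2.76 and 2.24. Summed over the 16 genes of the list with all 3 abundances, the level was 211.4 FPKM in +/-, 176.7 in D45/- and 227.4 in -/-, by the authors' deposited table. These 16 genes include the 9 members and were each called in at least 2 comparisons, so the sum is not that of the whole list.

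Of 47 interferon response genes outside the families that the rule left out, 20 were called higher (background 7.00%) and 3 lower in -/- in the authors' deposited table. From this list, 5 were members. Isg15, a ubiquitin-like protein gene, was at 10.54 FPKM in D45/-, 9.425 in +/- and 24.01 in -/-, by the authors' deposited table. Irf7, a transcription factor gene of this response, was at 8.183, 7.311 and 17.28 FPKM in that order in the authors' deposited table, and Bst2, which tethers viruses to the cell surface, at 18.83, 21.54 and 50.82. H2-K1 and H2-D1 encode class I MHC molecules, and neither was called between D45/- and +/-. H2-K1 was at 6.252 FPKM in D45/-, 9.52 in +/- and 26.26 in -/-, by the authors' deposited table. H2-D1 was at 8.859 FPKM in D45/-, 14.48 in +/- and 36.08 in -/-, by the authors' deposited table, with a q of 0.0234 against +/-. Class I genes are near copies of one another, so how reads were divided among them is uncertain. Ifitm1 and Ifitm3 met the 3 thresholds and were left out because their symbols begin with the letters of another family.

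**Figure D2:**
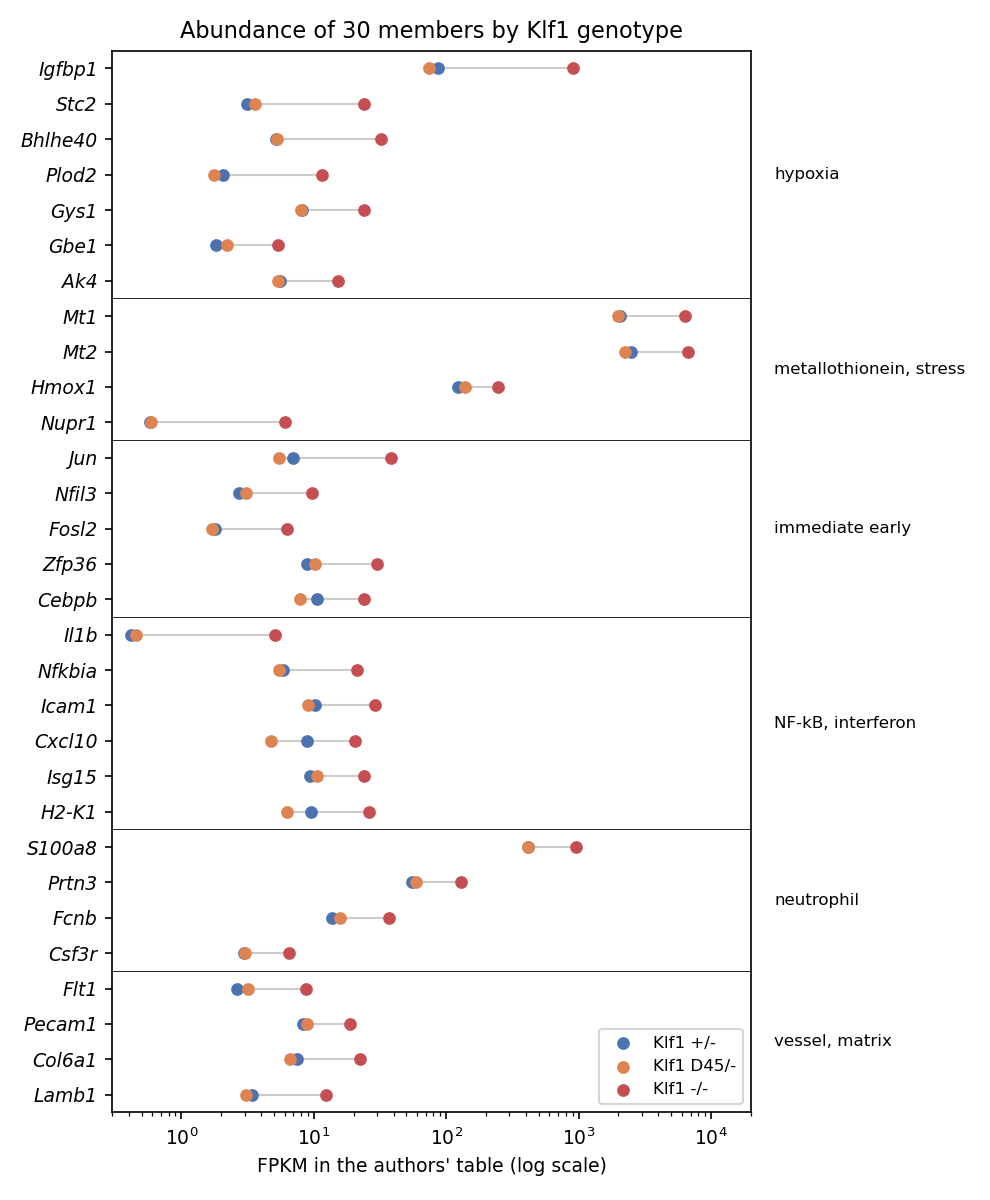
Abundance (FPKM, log scale) of 30 members in +/- (blue), D45/- (orange) and -/- (red) livers, 1 value per genotype from the authors' deposited table, grouped by role. In all 30 the -/- value is the highest, as the rule requires of every member. The rule also keeps D45/- from lying far above +/-, and in Cxcl10, H2-K1, Jun and Cebpb it lies below.

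The members with the lowest ratio of D45/- to +/- were lower in D45/- livers while being higher in -/- livers. Stfa1 was listed at 0 in D45/-, at 101.4 FPKM in +/- and at 208.6 in -/- in the authors' deposited table (q = 0.00159 for D45/- against +/-). It belongs to a cluster of near-identical stefin genes, and its neighbour BC100530 was at 129.2 FPKM in D45/-, 132.9 in +/- and 279.4 in -/-, by the authors' deposited table. Reads of one copy can be assigned to another, so the 0 does not show that the transcript was absent. Cxcl10, a chemokine gene, was at 4.715 FPKM in D45/-, 8.866 in +/- and 20.49 in -/-, by the authors' deposited table, a D45/- to +/- ratio of 0.53. The others of the lowest 10 were H2-D1 (0.61), H2-K1 (0.66), the macrophage transcription factor gene Spic (0.70), Cdkn1a (0.72), the urokinase receptor gene Plaur (0.73), the potassium channel gene Kcnj8 (0.74), Cebpb (0.74) and Jun (0.78). Apart from Stfa1, none of these was called between D45/- and +/- by the authors.

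Of the lists named for cells, the neutrophil list had the most members. Of 30 genes of granules and maturation, 17 were called higher (background 7.00%) and 0 lower in -/- than in +/- in the authors' deposited table. From this list, 8 were members. S100a8, which encodes a calcium-binding protein stored in neutrophils, was at 418 FPKM in D45/-, 417.2 in +/- and 961.3 in -/-, by the authors' deposited table. Prtn3, the gene of the granule protease proteinase 3, was at 59.32, 55.48 and 129.9 FPKM in that order in the authors' deposited table. Fcnb was at 15.71 FPKM in D45/-, 13.66 in +/- and 37.15 in -/-, and the G-CSF receptor gene Csf3r at 3.023, 2.964 and 6.489, in the authors' deposited table. Gfi1, a transcription factor gene of neutrophil development, was at 2.383 FPKM in D45/-, 2.116 in +/- and 5.926 in -/-, by the authors' deposited table. Stfa2l1 and BC100530 had ratios of 2.142 and 2.102. Elane, the elastase gene, met the thresholds for -/- but lay just over the D45/- ceiling, at 1.27 times the +/- abundance. Summed over the 13 genes of the list with all 3 abundances, the level was 1386 FPKM in +/-, 1360 in D45/- and 2957 in -/-, by the authors' deposited table. The 8 members are among these 13 genes, and each of the 13 was called in at least 2 comparisons. The sum thus partly repeats the selection and is not the level of the whole list.

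Other blood cell lists contributed fewer members. Of 39 monocyte and macrophage genes, 11 were called higher (background 7.00%) and 0 lower in -/- in the authors' deposited table. The 3 members were Spic, Itgam and Hmox1. Itgam, the integrin gene of CD11b shared with neutrophils, was at 5.731 FPKM in D45/-, 5.738 in +/- and 11.71 in -/-, by the authors' deposited table. Of 31 stem and progenitor genes, 6 were called higher (background 7.00%) and 3 lower in -/- in the authors' deposited table. Only Mycn, with a ratio of 2.19, was a member. Summed over the 6 genes of that list with all 3 abundances, -/- livers were at 278.0 FPKM, below 667.3 in +/-, by the authors' deposited table. That sum is not that of the whole list. Megakaryocyte and platelet genes contributed 0 members, although 18 of 31 were called higher (background 7.00%) and 2 lower in -/- in the authors' deposited table. Of these 18, 7 lay over the D45/- ceiling, 4 had no D45/- abundance and 7 were under the abundance or ratio threshold. In D45/- against +/-, 4 of the 31 genes were called higher and 0 lower (background 1.76% in either direction). Mast cell, basophil and eosinophil genes (1 of 21 called higher, background 7.00%) and lymphoid genes (1 of 22 higher and 1 lower) had no member. The leukotriene genes Alox5 and Alox5ap were members outside the lists, picked after their values had been seen. Alox5 was at 3.169 FPKM in D45/-, 3.138 in +/- and 13.66 in -/-, and Alox5ap, the activating protein of the same enzyme, at 22.48, 22.22 and 44.86, in the authors' deposited table.

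**Figure D3:**
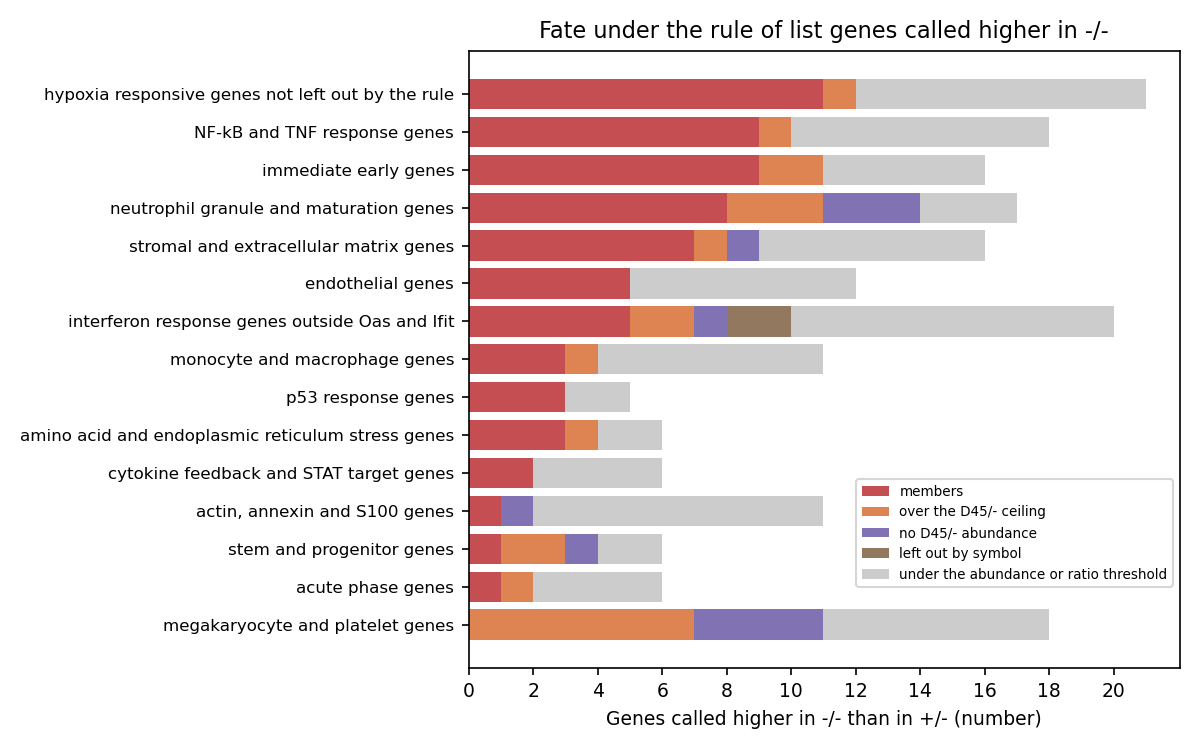
Number of genes of each fixed list called higher in -/- than in +/- in the authors' deposited table, divided by what the rule made of them, for the 15 lists with at least 5 such genes. Lists differ in length, so bars are counts and not shares. The hypoxia list has 11 members among its 21 genes, and the megakaryocyte list has 0 members among its 18 genes.

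Endothelial and matrix genes were also among the members. Of 39 endothelial genes, 12 were called higher (background 7.00%) and 0 lower in -/- in the authors' deposited table, and 5 were members. Flt1, a receptor for VEGF, was at 3.158 FPKM in D45/-, 2.646 in +/- and 8.76 in -/-, by the authors' deposited table. Pecam1, an adhesion molecule of endothelial junctions, was at 8.877, 8.246 and 18.9 FPKM in that order in the authors' deposited table. Esam, Adamts1 and Icam1 were the other endothelial members, with ratios from 2.29 to 2.85. Summed over the 10 genes of the list with all 3 abundances, the level was 53.06 FPKM in +/-, 56.21 in D45/- and 130.3 in -/-, by the authors' deposited table. The 5 members are among these 10 genes, and each of the 10 was called in at least 2 comparisons. This sum thus partly repeats the selection and is not the level of the whole list. Genes outside the list, picked after their values had been seen, included both parts of a potassium channel of vessel walls that is closed by ATP. Kcnj8, its pore, was at 0.8885 FPKM in D45/-, 1.204 in +/- and 5.293 in -/-, and Abcc9, its regulatory subunit, at 2.438, 2.308 and 6.317, in the authors' deposited table. The Kcnj8 and Abcc9 loci are neighbours, 16.5 kb apart on chromosome 6.

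Of 39 stromal and extracellular matrix genes, 16 were called higher (background 7.00%) and 0 lower in -/- in the authors' deposited table, and 7 were members. Col6a1 and Col6a2, chains of collagen VI, lie 85.4 kb apart on chromosome 10. Col6a1 was at 6.62 FPKM in D45/-, 7.433 in +/- and 22.45 in -/-, by the authors' deposited table, and Col6a2 at 6.239, 6.534 and 17.86. The chain gene Col6a3, a member outside the list, was at 3.136, 3.144 and 8.88 FPKM in that order in the authors' deposited table. Lamb1, a laminin chain gene, was at 3.085 FPKM in D45/-, 3.394 in +/- and 12.43 in -/-, by the authors' deposited table. Loxl2, which crosslinks collagen, and Postn, the periostin gene, had ratios of 2.34 and 2.27. Of 30 hepatocyte genes, 4 were listed at all in the authors' deposited table and 1, the member Igfbp1, was called higher in -/- (background 7.00%). Acute phase genes had 6 of 28 called higher (background 7.00%), of which Serpina3g was a member. How far more cells of these kinds, or more RNA per cell, account for the members was not tested.

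The remaining lists held few or no members. Of 25 genes of cytokine feedback and STAT signalling, 6 were called higher and 2 lower in -/- in the authors' deposited table. The receptor genes Il4ra (ratio 2.54) and Csf2rb (ratio 2.51) were members. Summed over the 7 genes of that list with all 3 abundances, -/- livers were at 142.0 FPKM, below 298.3 in +/-, by the authors' deposited table. That sum, which is not that of the whole list, was thus lower in -/- while the members were higher. Of 36 actin, annexin and S100 genes, 11 were called higher and 1 lower, and S100a8 was the member. Lysosome genes had 3 of 23 called higher and 1 lower with no member, and histone genes had 0 of 20 called higher and 3 lower. For each of these lists the background of genes called higher was 7.00%. In all, 61 members stood in at least 1 of the 21 lists, 8 in more than 1, and 104 in none.

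The thresholds cut through a continuous range. In the authors' deposited table the members just inside the ratio threshold were Calcrl (2.001), Vash1 (2.006) and Mib2 (2.009), and just outside it were Fndc3b (1.999), Tfec (1.998) and Fstl1 (1.993). At the D45/- ceiling, Rnf13 (1.246), Cers6 (1.228) and Postn (1.224) lay inside, and Serpinb1a (1.262), Ndrg2 (1.268) and Elane (1.271) outside. At the abundance threshold, Ralgds (5.02 FPKM), Il1b (5.08) and Ednra (5.119) lay inside, and Coro2a (4.946), Pdgfra (4.873) and Itpr2 (4.87) outside. Another 85 genes met the thresholds for -/- but lay over the D45/- ceiling, and 77 met them with no D45/- abundance.

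The members were spread over 20 chromosomes, with the most on chromosomes 3 (18), 7 (16) and 11 (15). There were 8 pairs of members within 100 kb of each other, among them Akr1b8 and Akr1b10, which encode aldo-keto reductases, 15.8 kb apart on chromosome 6, and Cdkn1a and Rab44, 34.3 kb apart on chromosome 17. The median locus length was 15.0 kb for members and 19.4 kb for the 1001 genes with all 3 abundances.

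KLF1 binding is a measure that the rule did not use. Of 1203 wildtype peaks, few lay near members. A wildtype peak was found within 10 kb of the locus for 9 of 165 members (5.45%, exact 95% interval 2.52 to 10.1, counting error only). Among the 318 genes that were lower in -/- by the same fold, the count was 133 (41.8%, 36.3 to 47.5), and among the 1001 genes with all 3 abundances it was 199 (19.9%, 17.4 to 22.5). The 1001 genes contain the members and the 318 lower genes, which supplied 133 of the 199, so they are not a neutral background. Over all 2036 listed genes, which contain these sets too, the count was 327 (16.1%, 14.5 to 17.7). Among the 85 genes over the D45/- ceiling it was 4 (4.71%, 1.30 to 11.6), an interval that overlaps that of the members. In MommeD45 livers, with 485 peaks, the counts were 4 members (2.42%, 0.664 to 6.09), 0 of the 85 genes (0.0%, up to 4.25) and 72 of the 318 lower genes (22.6%, 18.2 to 27.6). Genes are not independent replicates and each genotype had 1 chromatin library, so no test of these differences was made.

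**Figure D4:**
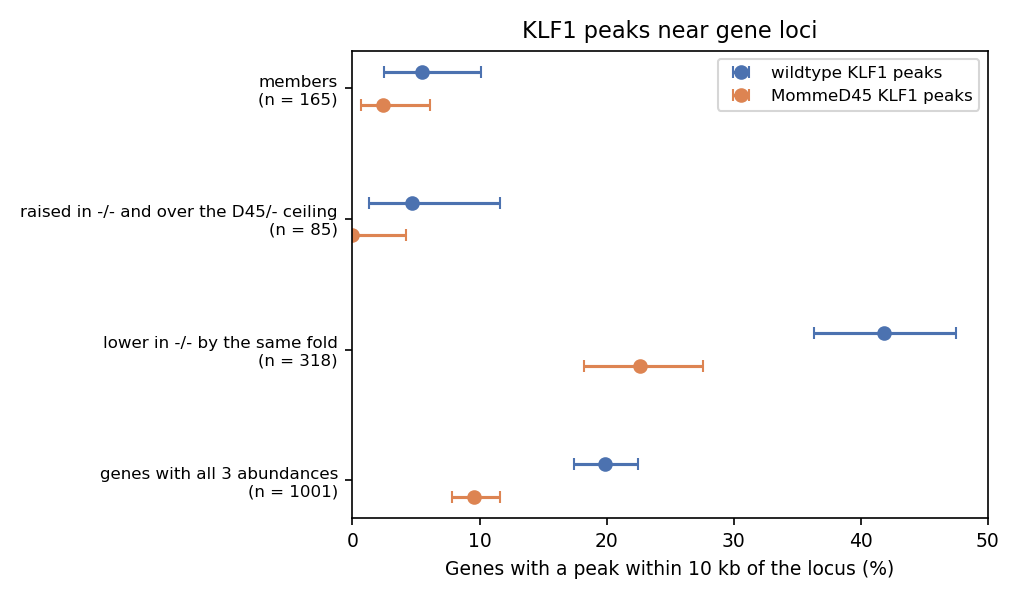
Share of genes (%) with a KLF1 peak within 10 kb of the locus, for peaks called in wildtype (blue) and MommeD45 (orange) livers. Points are shares and bars are exact 95% intervals, which cover counting error only. Members lie at 5.45% and 2.42%, and the genes lower in -/- at 41.8% and 22.6%.

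The 9 members near a wildtype peak were Zfp36, Mt1, Icam1, Mt2, Pstpip2, Creb3l1, Rnf13, Btg1 and Hmox1, and the 4 near a MommeD45 peak were Trp53inp1, Mt1, Mt2 and Pnrc1. The metallothionein genes were thus the members with a peak in both genotypes. At Mt1 the wildtype peak (chr8:96702799-96703105, mm9) had its summit 20 bases before the gene's start, with the authors' fold enrichment of 8.08. The MommeD45 peak there had its summit 5 bases before the start and a fold enrichment of 8.198. At Mt2 the wildtype peak (chr8:96696396-96696723, mm9) had its summit 44 bases past the start (fold enrichment 6.768), and the MommeD45 peak 76 bases past it (3.821). Enrichments from the 2 libraries are given side by side and were not compared. The wildtype summits at Rnf13 and Btg1 lay 91 and 93 bases before the start, with fold enrichments of 4.54 and 4.359. At Zfp36 the summit lay 3524 bases past the start, beyond the end of the gene, and at Icam1 13442 bases past the start, also beyond the end. The peak counted for Hmox1 was 9.44 kb away from the locus and ranked 1169 by fold enrichment among the wildtype peaks.

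Promoter windows of the 4 members with a wildtype summit at the gene's start are shown because binding was measured there. The build is GRCm38.p6, the windows run from 250 bases before to 50 bases after the start, and capitals again mark CCNCNCCC or CACCC on either strand. All 4 genes are on the plus strand, Mt1 at chr8:94178839-94179138, Mt2 at chr8:94172368-94172667, Rnf13 at chr3:57735807-57736106 and Btg1 at chr10:96616751-96617050.
Mt1: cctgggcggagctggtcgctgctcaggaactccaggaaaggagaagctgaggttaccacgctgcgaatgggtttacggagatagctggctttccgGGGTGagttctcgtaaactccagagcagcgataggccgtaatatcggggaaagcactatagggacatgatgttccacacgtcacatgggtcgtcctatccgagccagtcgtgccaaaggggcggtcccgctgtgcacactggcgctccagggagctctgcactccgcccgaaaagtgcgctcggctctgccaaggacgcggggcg
Mt2: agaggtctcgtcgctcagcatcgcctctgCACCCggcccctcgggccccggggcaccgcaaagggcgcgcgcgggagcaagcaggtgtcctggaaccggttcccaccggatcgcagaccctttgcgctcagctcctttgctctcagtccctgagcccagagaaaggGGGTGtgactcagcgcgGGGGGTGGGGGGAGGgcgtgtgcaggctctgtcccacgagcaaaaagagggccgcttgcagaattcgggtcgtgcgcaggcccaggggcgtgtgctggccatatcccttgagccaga
Rnf13: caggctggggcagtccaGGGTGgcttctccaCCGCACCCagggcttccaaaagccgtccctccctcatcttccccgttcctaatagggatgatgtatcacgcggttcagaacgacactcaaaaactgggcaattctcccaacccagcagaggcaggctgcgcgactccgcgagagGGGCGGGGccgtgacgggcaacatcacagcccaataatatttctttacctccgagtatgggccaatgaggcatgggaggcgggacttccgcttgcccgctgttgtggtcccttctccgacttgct
Btg1: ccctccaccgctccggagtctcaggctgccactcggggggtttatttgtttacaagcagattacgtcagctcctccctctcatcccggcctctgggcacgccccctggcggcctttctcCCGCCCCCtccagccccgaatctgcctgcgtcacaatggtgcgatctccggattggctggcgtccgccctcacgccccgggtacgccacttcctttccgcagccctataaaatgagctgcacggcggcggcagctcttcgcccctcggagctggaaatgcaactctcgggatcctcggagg
The Mt1 window holds 0 CCNCNCCC matches and 1 CACCC match, the Mt2 window 3 of each, the Rnf13 window 2 of each, and the Btg1 window 1 and 0. The letters TGCNCNC, searched as a loose form of a metal response core, matched 3 times in the Mt1 window and 6 times in the Mt2 window. They were found in 51.0% of all windows. A gene whose window lacks a motif may still be bound, since only these letters in these windows were searched.

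Over the set, 131 of the 165 members had an entry in the RefSeq promoter table, with 165 windows, counting members matched through another symbol. CCNCNCCC on either strand was found in 127 windows (77.0%), beside 69.7% of windows of the 1001 genes with all 3 abundances, 70.1% of the 318 lower genes and 49.5% of all 32851 windows in the table. CACCC was found in 68.5% of the members' windows, 68.8% for the 1001 genes and 57.5% of all windows. Windows were counted singly, although some genes have several windows that overlap almost fully, such as those of Ak4, Ampd2 and H2-K1. These motifs overlap each other and depend on base composition. The median number of CpG per window was 13 for members, 16 for the 1001 genes and 7 for all windows. For motifs of other factors, shares are given for the members, the 1001 genes and all windows in turn. The hypoxia response core ACGTG was in 20.6%, 24.6% and 19.6% of windows, and the AP-1 motif TGANTCA in 7.27%, 6.59% and 7.81%. TGCNCNC was in 52.1%, 58.3% and 51.0%, and the cAMP response motif TGACGTCA in 3.03%, 2.07% and 1.79%. The C/EBP motif TTNNGNAA was in 37.6%, 33.8% and 40.7%, and the GATA motif AGATAA in 9.09%, 9.97% and 11.2%. For all of these but TGACGTCA and AGATAA, the members lay above one of the backgrounds and below the other, and no test was made.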

How the data were processed

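The mRNA of 9 libraries (3 genotypes in 3 replicates) entered the authors' cuffdiff comparisons, and 2 KLF1 chromatin libraries with their inputs gave the peaks. The submitters' processing notes name TopHat2 2.0.10 and mm9; neither version, options nor annotation of cuffdiff is given in the sources used here. The deposited gene table lists only results marked significant. Per the file headers it holds p-values and q-values, a log2 ratio without pseudocount and 1 abundance per genotype. That abundance was read as FPKM from the column layout, since no unit is named, and sequencing depth is unknown. Replicate values were not analysed here. Replicates are those of the labels, which do not say whether they were separate embryos. Per the deposited description sheet, reads of the chromatin libraries were mapped to mm9 with Bowtie2, freed of duplicates with Picard and turned into peaks with MACS2. The columns for each peak are, per the file headers, the pileup signal, the fold enrichment and −log10 of the q-value and p-value, all of them the authors' and used only to describe peaks.

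The members and the 21 gene lists were chosen with earlier results of these data known. Calls are the authors' at q under 0.05. Multiplying q by the rank of p over p gave 38893.9 to 38894.1 tests over the 3 comparisons, and 12965 per comparison were assumed in the background shares. Peaks within 10 kb of a locus in the authors' table were counted as near, with exact (Clopper-Pearson) 95% intervals. Distances from a gene's start use the locus ends in mm9 and the strand from RefSeq. Promoter windows came from RefSeq (GRCm38.p6), were matched by symbol or by another symbol of the gene, and were not joined to mm9 coordinates. The window counted for Pvr is listed under Nectin2 and appears to belong to a different gene.

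Genes were named by a rule: Klf1, the 10 members of largest -/- to +/- ratio, of highest abundance in -/- and of lowest D45/- to +/- ratio, the 3 genes on each side of each threshold, up to 8 members of each list, and members near a peak. Not every gene chosen this way is reported here, and any gene outside the rule was picked after its values were seen. The selection was tested on simulated tables, where every gene had all 3 abundances and the -/- to +/- ratio alone set the planted genes apart. Missing abundances, the other thresholds and the symbols left out were thus not put to that test. Alternatives covered the thresholds, the symbols left out, a pseudocount of 1, stricter q, peak distance and strength, and the motif. Python 3.11.15, numpy 2.4.6, pandas 2.3.3, scipy 1.17.1 and matplotlib 3.10.9 were used.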

Additional observations from a re-analysis of the deposited data

How the results depend on the processing

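The size of the set depended on its thresholds. The 165 members became 282 at a lowest abundance of 1 FPKM and 94 at 10 FPKM, 41 at a ratio of -/- to +/- of at least 3, and 67 at a ratio of D45/- to +/- of at most 1. The count stayed within 1.5 times of 165 under 5 other settings, between 140 (a pseudocount of 1) and 226 (a ratio of at least 1.5). At a q under 0.01, 148 members were called against +/- and 135 against D45/-. The share of all genes called at that q was not computed. These counts also follow in large part from the rule, and nothing is read from them. With a pseudocount of 1 the median log2 ratios were 1.14 for -/- and 0.04 for D45/- against +/-. The 9 members near a wildtype peak became 8 within 1 kb and 21 within 50 kb, 4 with the peaks in the upper part of fold enrichments, and 4 with MommeD45 peaks. The 127 windows with CCNCNCCC became 40 with CCACNCCC and 113 with CACCC. No paired analysis was possible because the deposited table holds 1 abundance per genotype and no replicate columns, and leaving out a replicate was not run for the same reason. The abundances carry no error, and low members such as Il1b and Nupr1 rest on a +/- abundance under 1 FPKM with unknown depth.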
